A study of Homo sapiens with 8 samples.

Results

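The 8 genes described here, TCP1, CCT2, CCT3, CCT4, CCT5, CCT6A, CCT7 and CCT8, encode the subunits of the chaperonin TRiC/CCT. They were chosen by their membership of this complex after CCT5 had been seen to fall in the NELFB knockdown libraries and not in the NELFE knockdown libraries, and the question asked was whether the other 7 subunits followed CCT5. The count table lists 60725 genes, of which 16852 had enough counts to be tested, and all 8 subunits were among these. Because its drop selected the set, CCT5 is described below without a test.

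TRiC/CCT is a barrel built from a pair of stacked rings, each of which holds one copy of every subunit. It encloses newly made proteins and lets them fold with the use of ATP, and its best known clients are actin and tubulin. Since every ring needs every subunit, the genes are usually expressed together. NELF, the complex to which NELFE and NELFB belong, holds RNA polymerase II in a paused state shortly after the start of transcription.

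The cells were HAP1, a near-haploid human cell line derived from a leukaemia line, and all libraries came from a single clone, SC9, that stably expressed dCas9-KRAB, an inactive Cas9 fused to a repressor domain. In CRISPRi, a guide RNA brings this protein to a promoter to silence it. One guide RNA was used per target and was delivered by lentivirus followed by puromycin selection. The control group (n = 3) received a guide RNA against ADAM22 (plasmid pLB187), the NELFE knockdown (n = 3) one against NELFE and the NELFB knockdown (n = 2) one against NELFB, so that the control cells also carried the repressor, a guide RNA and the selection. Polyadenylated RNA was taken 144 h after transduction, and the libraries held between 22037423 and 24444185 counts each.

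The knockdowns matched their labels. NELFE RNA was at 50.5, 49.4 and 48.1 CPM (counts scaled to the same library size) in the control libraries, 2.41, 2.37 and 2.98 in the NELFE knockdown, and 61.2 and 56.9 in the NELFB knockdown. NELFB RNA was at 74.4, 72.7 and 79.1 CPM in the control libraries, 63.4, 63.9 and 64.03 in the NELFE knockdown, and 3.07 and 2.78 in the NELFB knockdown. CPM values are normalized between libraries with the TMM method throughout. Of 6 haematopoietic markers, PTPRC, SPI1, CD33 and GATA1 stayed at or below 0.387 CPM in every library and were not tested. HBA1 reached 1.00 CPM at most. It was lower in the NELFE and NELFB knockdowns (log2 fold changes -0.76 and -1.47), neither of which passed. CD34 was scarce but not equal between groups, at 0.12, 0.133 and 0.0438 CPM in control, 0.665, 0.258 and 1.30 in the NELFE knockdown, and 2.78 and 0.897 in the NELFB knockdown. All knockdown libraries lay above control, and its part in the results below was not tested.

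CCT5 (ENSG00000150753.11) lies on the plus strand of chromosome 5, from 10249929 to 10266389 in GRCh38. Its RNA was at 526, 610.4 and 696 CPM in the control libraries, 469, 464 and 607 CPM in the NELFE knockdown, and 87.5 and 81.3 CPM in the NELFB knockdown. Both NELFB libraries lay far below every other library, whereas the NELFE and control libraries overlapped. The mean in the NELFB knockdown was 84.4 ± 4.39 CPM (SD, n = 2), which is 13.8% of the control mean of 611 ± 85.2 CPM (SD, n = 3), and the mean in the NELFE knockdown was 513 ± 81.0 CPM (SD, n = 3), or 84.1% of control. On the log2 scale these changes were -2.86 and -0.25. With 2109 and 1903 reads on CCT5 in the NELFB libraries, counting error was small beside the differences. In bulk RNA, fewer cells that express a gene and less RNA per cell cannot be told apart.

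The guide RNA sequences are shown because CCT5 carries a partial match of the NELFB guide RNA near its start. In the guide RNA, capitals mark the bases next to the PAM (the NGG motif that Cas9 needs) that the CCT5 site shares without a break, and in the site they mark every base equal to the guide RNA.
NELFB guide RNA: gccgagctGGAGGGCGCCG
site in CCT5: ctCcAGtgGGAGGGCGCCG
NELFE guide RNA: gggcgcggccggagaccgt

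The NELFB guide RNA has its target at chr9:137255369-137255387 on the plus strand and the NELFE guide RNA at chr6:31958918-31958936 on the minus strand. The site in CCT5 is at chr5:10250778-10250796 on the plus strand and is followed by the PAM GGG. It shares 14 of 19 bases with the guide RNA, 11 of them next to the PAM, and differs by the substitutions G1C, C2T, G4C, C7T and T8G, counted from the 5′ end of the guide RNA. Its last base lies 516 bases downstream of the start of the canonical CCT5 transcript at 10250280, in the first intron of that transcript, and within exon 1 of a pair of other CCT5 transcripts, and 257 bases from the nearest annotated start. A match of 11 or more PAM-proximal bases within 500 bases of an annotated start occurred at 43 of the 16645 tested genes that could be searched (0.258%).

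The other subunits had shorter matches. Within 500 bases of their starts the longest PAM-proximal match of the NELFB guide RNA was 7 bases at CCT4 and CCT7, 5 at CCT8, 4 at TCP1, CCT2 and CCT6A, and 2 at CCT3, and a match of 7 bases or more was found at 15.7% of genes. The NELFE guide RNA matched between 3 and 5 bases at all 8 subunits, with 3 at CCT5. With a window of 250 bases the longest match at CCT5 was 4 bases, because the site lies farther from any start. The longest match of the NELFB guide RNA at CCT7 was 5 bases in that window. At CCT3 it was 5 bases within 1000 bases. Binding of dCas9-KRAB was not measured in these data, and whether it contributed to the loss of CCT5 RNA was not tested.

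ATPSCKMT, a mitochondrial lysine methyltransferase gene that is transcribed away from CCT5, starts 392 bases from it on the minus strand, and its start is 908 bases from the guide RNA match. It was at 23.3, 25.2 and 27.1 CPM in the control libraries, 26.8, 31.4 and 32.7 CPM in the NELFE knockdown, and 9.63 and 11.7 CPM in the NELFB knockdown. The NELFB libraries did not overlap the others. Its log2 fold change was -1.24 ± 0.14 (SE) in the NELFB knockdown (edgeR quasi-likelihood test, Benjamini-Hochberg adjusted p = 0.00042) and 0.27 ± 0.11 in the NELFE knockdown (edgeR adjusted p = 0.14), and the difference between the knockdowns was 1.504 ± 0.14 (edgeR adjusted p = 0.00034). The annotated transcripts of the pair do not overlap, so a read of one is not counted for the other. CCT5 therefore was not the only gene of its start region with a lower RNA level in the NELFB knockdown, and the decrease of ATPSCKMT was smaller on the log2 scale.

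**Figure D1:**
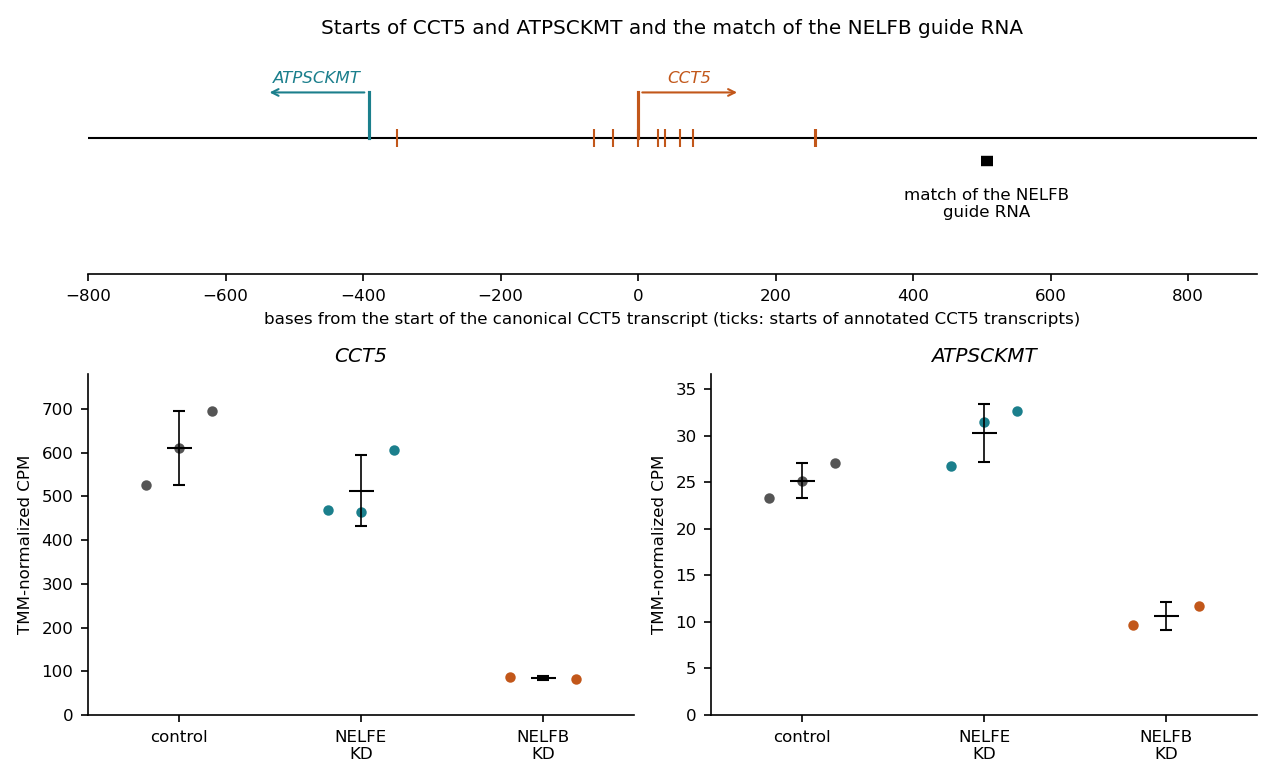
Upper panel: distance in bases from the start of the canonical CCT5 transcript, with the starts of CCT5 and ATPSCKMT (arrows), the starts of all annotated CCT5 transcripts (ticks) and the match of the NELFB guide RNA (black bar), which ends 516 bases downstream. Lower panels: TMM-normalized CPM of each gene in every library (points) with the group mean and SD (n = 3, 3 and 2); in both, the NELFB knockdown libraries lie below all others.

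None of the other 7 subunits passed the test in either knockdown. Against control, 0 of 7 passed an adjusted p of 0.05 in the NELFB knockdown in the edgeR test, while 8.88% of all tested genes were called lower and 10.6% higher. In the NELFE knockdown 0 of 7 passed as well, against 7.04% of genes called lower and 7.92% higher. At an unadjusted p under 0.05, 1 of 7 subunits (CCT6A) was lower in the NELFB knockdown and 0 of 7 in the NELFE knockdown, while 34.7% and 30.9% of all tested genes had such a p in either direction. All 7 had values below 0 in both comparisons, with a median log2 fold change of -0.18 in the NELFB and -0.13 in the NELFE knockdown, where the median of all tested genes was -0.00338 and -0.00516. These values depended on single libraries. In the NELFE knockdown, CCT3 was at 0.011 without NELFE replicate 1, and CCT2 at -0.19 without NELFE replicate 3. Without control replicate 3, CCT2 was at -0.046 and CCT3 at -0.052 in the NELFB knockdown, and at 0.073 and 0.068 in the NELFE knockdown. Without control replicate 1, they were at -0.33 and -0.26 in the NELFB knockdown (edgeR adjusted p = 0.0757 and 0.0569), and at -0.21 and -0.14 in the NELFE knockdown. The comparisons share their control libraries, so that the common sign is not a repeat observation.

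TCP1, which encodes subunit alpha, was at 664, 762 and 843 CPM in the control libraries, 627, 629 and 797 in the NELFE knockdown, and 640.4 and 638 in the NELFB knockdown. Its NELFB libraries lay just below the lowest control library, and the log2 fold change was -0.24 ± 0.13 (edgeR adjusted p = 0.20). CCT2, subunit beta, was at 425, 564 and 641 CPM in control, 475, 475 and 609.5 in the NELFE knockdown, and 487 and 471 in the NELFB knockdown. Here all groups overlapped, and the log2 fold change in the NELFB knockdown was -0.18 ± 0.16 (edgeR adjusted p = 0.47).

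CCT3, subunit gamma and the most abundant of the set, was at 764, 943 and 1027 CPM in control, 848, 864 and 972 in the NELFE knockdown, and 845 and 802 in the NELFB knockdown. CCT4, subunit delta, was at 421, 488 and 547 CPM in control, 423, 405 and 507 in the NELFE knockdown, and 443 and 426 in the NELFB knockdown. Both knockdowns overlapped with control for these genes, with log2 fold changes in the NELFB knockdown of -0.15 ± 0.12 for CCT3 and -0.16 ± 0.12 for CCT4.

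CCT6A, subunit zeta, had the lowest log2 fold change of the 7 in each knockdown. It was at 491, 689 and 762 CPM in control, 475, 479 and 634 in the NELFE knockdown, and 472 and 476 in the NELFB knockdown. The NELFB libraries lay below all control libraries, although only just below control replicate 1, and the NELFE libraries overlapped with control. The mean was at 73.2% of control in the NELFB and 81.8% in the NELFE knockdown, with log2 fold changes of -0.45 ± 0.18 (edgeR adjusted p = 0.0996) and -0.29 ± 0.16 (edgeR adjusted p = 0.24). These values depended on single libraries. Without control replicate 1, CCT6A passed in both comparisons (edgeR adjusted p = 0.0104 and 0.031), at log2 fold changes of -0.62 and -0.46. Without control replicate 3 they were -0.32 and -0.16 (edgeR adjusted p = 0.24 and 0.552). Without NELFE replicate 3 the value in the NELFE knockdown was -0.44 (edgeR adjusted p = 0.0663). CCT6A also passed without a filter on low counts (edgeR adjusted p = 0.000274 and 0.0205).

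CCT7, subunit eta, was at 613, 654 and 727 CPM in control, 580.0, 568 and 668 in the NELFE knockdown, and 617 and 584 in the NELFB knockdown. CCT8, subunit theta, was at 471, 533 and 592 CPM in control, 475, 455 and 561 in the NELFE knockdown, and 485 and 457 in the NELFB knockdown. Groups overlapped for both, and log2 fold changes in the NELFB knockdown were -0.15 ± 0.10 and -0.18 ± 0.12. In the NELFE knockdown, values of the 7 subunits ranged from -0.29 (CCT6A) to -0.03 (CCT3).

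**Figure D2:**
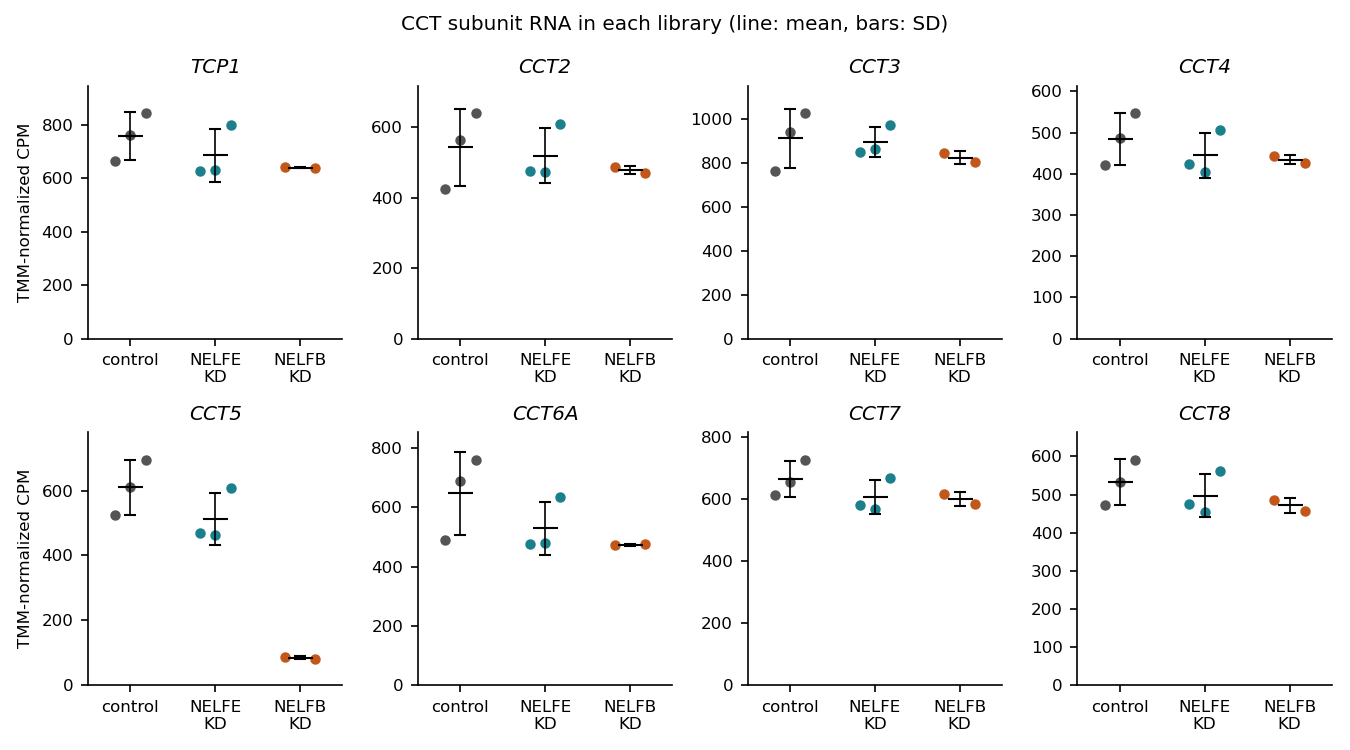
TMM-normalized CPM of the 8 CCT subunits in each library (points), by group, with the mean and SD (n = 3 control, 3 NELFE knockdown, 2 NELFB knockdown). In CCT5 alone the NELFB libraries (87.5 and 81.3 CPM) drop far below the other groups.

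The precision of the data sets limits on how much the 7 subunits could have changed. In the NELFB knockdown the lower ends of their 95% intervals corresponded to changes between -22.6% (CCT7) and -44.3% (CCT6A), whereas CCT5 was at 13.8% of its control mean. For 6 of the 7 the interval included no change. CCT6A was the exception, from -0.84 to -0.06 on the log2 scale before adjustment over all genes.

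**Figure D3:**
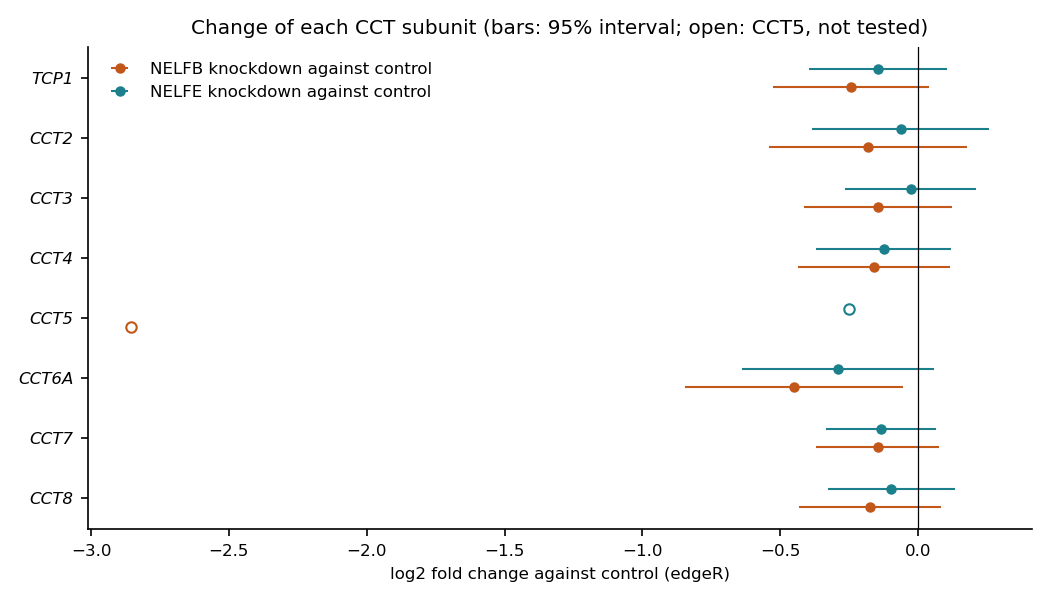
Log2 fold change of each CCT subunit against control in the NELFB and NELFE knockdowns from edgeR (points) with 95% intervals (bars). CCT5 (open points, -2.86 and -0.25) has no interval since its decrease chose the set, and the other 7 lie between -0.45 and -0.03.

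The knockdowns were also compared with each other. CCT5 was 2.60 higher in NELFE knockdown cells than in NELFB knockdown cells on the log2 scale. The other subunits differed by 0.01 (CCT7) to 0.16 (CCT6A), and 0 of 7 passed the test. At an unadjusted p under 0.05 there were 0 of 7 as well, and 5.12% of all tested genes. In this comparison 0.237% of genes were called higher in the NELFE knockdown and 0.0771% lower. With all 5 knockdown libraries set against the 3 control libraries, which the study did to gain power, 0 of 7 subunits passed, with 13.3% of 16367 genes called higher and 12.7% lower, and CCT6A came closest at -0.35 ± 0.14 (edgeR adjusted p = 0.084). Leaving out NELFE replicate 3 brought CCT6A (edgeR adjusted p = 0.0156) and TCP1 (edgeR adjusted p = 0.0249) past the threshold in this comparison, and leaving out control replicate 1 brought CCT6A past it (edgeR adjusted p = 0.00868).

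The subunits varied together between libraries of the same group. Control replicate 1 had the lowest and control replicate 3 the highest value for 8 of 8 subunits. NELFE replicate 3 was the highest NELFE library for 8 of 8. How many of all genes share this order was not counted, so it is not read as a trait of the complex. Over all tested genes, deviations from the group mean in control replicate 3 and NELFE replicate 3 correlated at 0.451. Control replicate 1 was at 64.4% (CCT6A) to 84.4% (CCT7) of control replicate 3. The summed level of the 7 subunits other than CCT5 was 3850.1, 4632 and 5139 CPM in control, 3904, 3875 and 4749 in the NELFE knockdown, and 3989 and 3855 in the NELFB knockdown. The 2 NELFB libraries lay within the range of the control libraries, near its lower end.

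The chaperone genes HSPA8 and HSPD1 varied in the same libraries. HSPA8, the constitutive cytosolic HSP70, was at 1772, 3261 and 3779.6 CPM in control, 2183, 2299.5 and 3099 in the NELFE knockdown, and 2307 and 2405 in the NELFB knockdown. HSPD1, the mitochondrial chaperonin, was at 1879, 2154 and 2438 CPM in control, 1696, 1659 and 2059 in the NELFE knockdown, and 1716 and 1739 in the NELFB knockdown. Both had the same lowest and highest library as the CCT subunits in the control group and the same highest library in the NELFE group. The chaperonin-like gene BBS10 did not, at 38.6, 36.0 and 35.9 CPM in control. The part that this variation between libraries has in the small differences of the subunits was not tested.

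**Figure D4:**
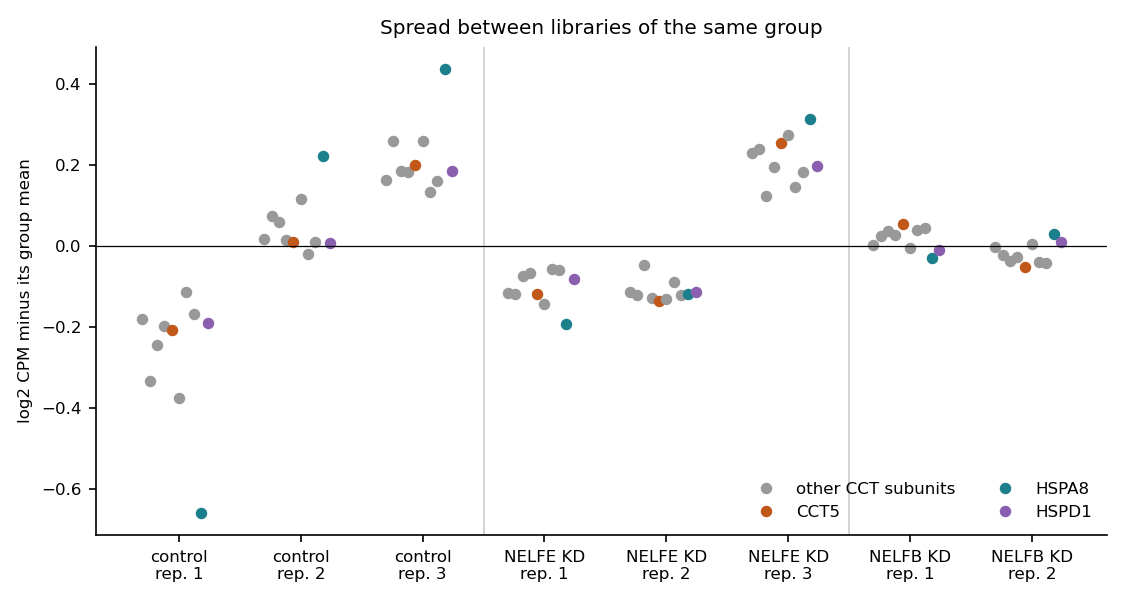
Log2 CPM of each gene minus the mean of its group, by library, for CCT5, the other 7 CCT subunits, HSPA8 and HSPD1. All 8 subunits lie below their mean in control replicate 1 and above it in control replicate 3 and NELFE replicate 3.

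Levels of different subunits were compared per length, as TPM, in which counts are divided by the summed length of a gene's exons and then scaled to the same total in every library. In control cells CCT3 was highest at 964 ± 129 TPM (SD, n = 3), followed by CCT7 (758 ± 54.2), CCT4 (735 ± 84.9), CCT6A (687 ± 140.5), CCT8 (651 ± 64.2), TCP1 (633 ± 65.8), CCT2 (524 ± 98.7) and CCT5 (443 ± 55.3). From CCT7 to TCP1, and from CCT2 to CCT5, neighbours in this order differed by less than the SD of at least 1 of them. With the length of the longest transcript in place of the exons, CCT3 and CCT7 were again the top pair and CCT5 the lowest, while TCP1 moved to the third place and CCT4 to the seventh. CCT5 thus made up 8.21% of the summed TPM of the 8 subunits in control, 7.55% in the NELFE knockdown and 1.41% in the NELFB knockdown.

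Reads that fit several places can be missing from the counts. Of all 65-base windows of the canonical transcript, 6.2% of those of CCT8, 3.02% of CCT6A, 2.36% of TCP1, 1.58% of CCT5 and 0.519% of CCT4 had an exact copy elsewhere in the genome, and none of those of CCT2, CCT3 and CCT7. The annotated pseudogenes CCT5P1 and CCT5P2 stayed at or below 0.306 CPM. CCT6P1 and CCT6P3 were the only pseudogenes above 1 CPM, and neither differed between a knockdown and control (edgeR adjusted p at least 0.571).

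Of the tested genes next to the other subunits (TSACC, PRADC1, SNORA20, MRPL18 and PSPH), only PSPH was called. Of all tested genes, 8.88% were called lower and 10.6% higher in the NELFB knockdown. In the NELFE knockdown these shares were 7.04% and 7.92%. A single call among few genes is not read as a result about the neighbours. PSPH, the last enzyme of serine synthesis, starts 321 bases from CCT6A on the opposite strand. It was at 81.6, 76.6 and 84.2 CPM in control, 60.8, 57.4 and 63.0 in the NELFE knockdown, and 53.1 and 52.0 in the NELFB knockdown. No knockdown library reached the control range, and PSPH was downregulated in the NELFB (log2 fold change -0.62 ± 0.08, edgeR adjusted p = 0.0012) and the NELFE knockdown (-0.42 ± 0.07, edgeR adjusted p = 0.006). MRPL18, a mitochondrial ribosomal protein gene beside TCP1, had values of -0.33 and -0.22, and PRADC1 beside CCT7 and TSACC beside CCT3 had values between -0.21 and 0.07, none of which passed.

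The promoters were searched for 4 simple motifs. RefSeq promoter windows (250 bases before to 50 after the start) were found for 7 of the 8 genes, and CCT6A was not in the table. The motif GAANNTTC, a core of heat shock elements, occurred in the windows of TCP1 and CCT2 and in 6.77% of 35116 promoters, and TTCNNGAA in that of CCT4 and in 7.74%. CACGTG (7.26% of promoters) and TATAAA (11.5%) were in none of the 7 windows, on either strand, and 7 windows are too few to read more from these counts.

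Genes were ranked by the likeness of their pattern over the 8 libraries to that of CCT5. The ranking uses the CCT5 values that chose the set, so subunits without the drop of CCT5 rank low by construction. No conclusion about the other subunits is drawn from it. Among the 12792 genes whose log2 CPM averaged 1 or more, the highest Pearson correlations of log2 CPM with CCT5 were those of PGP (0.998), FEM1C (0.997), MAPK6 (0.996), SCML2 (0.994) and NELFB itself (0.992), a description over 8 libraries that rests on the low NELFB libraries. The longest match of the NELFB guide RNA near their starts was 11 bases for PGP, FEM1C and MAPK6, 7 for SCML2 and 19 for its target NELFB. These genes were picked for this pattern, so their matches are a description only. ATPSCKMT ranked at place 39 with 0.946. The other subunits had correlations from 0.41 (CCT4) to 0.59 (CCT6A), and the best of them, CCT6A, ranked at place 1988.

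Genes that work with TRiC/CCT were examined by list, and the counts of each list stand beside the shares of all tested genes, which were 8.88% called lower and 10.6% higher in the NELFB knockdown and 7.04% lower and 7.92% higher in the NELFE knockdown. Prefoldin, which hands unfolded actin and tubulin to the chaperonin, had 1 of 6 subunits called lower in the NELFB knockdown and 0 of 6 in the NELFE knockdown. VBP1, its most abundant member, was at 209.9, 241 and 263 CPM in control, 188, 175 and 223 in the NELFE knockdown, and 184 and 170.2 in the NELFB knockdown. The log2 fold change was -0.43 ± 0.12 in the NELFB knockdown (edgeR adjusted p = 0.034) and -0.29 ± 0.11 in the NELFE knockdown (edgeR adjusted p = 0.101), and the knockdowns did not differ past the threshold (edgeR adjusted p = 0.983). The call in the NELFB knockdown was lost without control replicate 2 (0.0897) or 3 (0.085) and without either NELFB library (0.15 and 0.203). Of 3 tested phosducin-like cofactors (TXNDC9 the most abundant), which assist the chaperonin, and of 4 tubulin folding cofactors in the table (TBCD the most abundant), 0 passed in either knockdown.

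Of 12 tubulins, the classical clients, 3 were lower and 1 higher in the NELFB knockdown (all genes 8.88% and 10.6%), and 4 were lower and 1 higher in the NELFE knockdown (7.04% and 7.92%). The single higher call is near the share of all genes. TUBA4A was at 45.3, 34.7 and 38.0 CPM in control, 19.7, 19.1 and 25.1 in the NELFE knockdown, and 20.2 and 18.3 in the NELFB knockdown. All knockdown libraries lay below control, at log2 fold changes of -0.88 ± 0.13 (edgeR adjusted p = 0.0031) and -1.03 ± 0.15 (0.0019). TUBA1C was lower as well (-0.69 in the NELFE and -0.77 in the NELFB knockdown), and both genes passed without any 1 library.

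TUBA1A moved the other way. It was at 222, 175 and 182 CPM in control, 293, 261 and 334 in the NELFE knockdown, and 442 and 345 in the NELFB knockdown. Every knockdown library was above control, with log2 fold changes of 0.62 (edgeR adjusted p = 0.012, and 0.0549 without control replicate 2) and 1.03 (edgeR adjusted p = 0.0013). TUBA1B was lower (-0.51 and -0.49) but lost its call in the NELFE knockdown without NELFE replicate 1 (0.052) or 2 (0.0517) and in the NELFB knockdown without NELFB replicate 1 (0.146) or 2 (0.104). TUBB, the most abundant tubulin, was at -0.43 in both and passed in the NELFE knockdown only (edgeR adjusted p = 0.046, against 0.057), a call lost without control replicate 2 or 3, NELFE replicate 1 or 2 or NELFB replicate 1 or 2 (adjusted p up to 0.163) and with only the libraries of the groups compared (0.0794). TUBA1A, TUBA1B and TUBA1C are near-identical in their coding sequences, so reads that fit several of them are missing from the counts. Between the knockdowns, 0 of 12 tubulins passed in the edgeR test (0.237% of all genes called higher and 0.0771% lower), and 1 had an unadjusted p under 0.05, beside 5.12% of all genes.

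Of the cytoplasmic actins, ACTB and ACTG1, 0 of 2 passed in either knockdown. ACTG1 was the more abundant over all libraries, although in control the mean of ACTB was higher (2982 against 2835 CPM). The log2 fold changes of ACTG1 were 0.19 in the NELFE and 0.42 in the NELFB knockdown. Among 10 other clients, CDC20, an activator of the anaphase-promoting complex, was at 227, 266 and 259 CPM in control, 141, 156 and 182 in the NELFE knockdown, and 126 and 138 in the NELFB knockdown. It was downregulated in both (-0.65 ± 0.10, edgeR adjusted p = 0.0039, and -0.93 ± 0.12, edgeR adjusted p = 0.00092), also without any 1 library, and the other 9, with GNB1 the most abundant, did not pass. This 1 of 10 in each knockdown is near the share of all genes called lower (8.88% and 7.04%).

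Of 6 tested genes related to the chaperonin, 1 was called higher and 0 lower in the NELFB knockdown, beside 10.6% and 8.88% of all genes, and 0 of 6 passed in the NELFE knockdown. The called gene, CCT6B, the paralog of CCT6A that is best known from testis, was at 2.84, 3.15 and 1.44 CPM in control, 3.99, 5.38 and 3.40 in the NELFE knockdown, and 4.81 and 5.30 in the NELFB knockdown. It was called higher in the NELFB knockdown (1.02 ± 0.30, edgeR adjusted p = 0.037), a call lost without control replicate 3 (0.0646), NELFE replicate 1 (0.0537) or NELFB replicate 1 (0.162) or 2 (0.172), and its level is far below that of CCT6A. Of the 12 heat shock chaperones and their regulators, 2 were higher in each knockdown and 1 was lower in the NELFE knockdown, beside 10.6% and 7.92% of all genes called higher and 7.04% called lower. HSPA1B, an inducible HSP70, rose by 0.79 in the NELFE (edgeR adjusted p = 0.0058) and 0.74 in the NELFB knockdown (0.0087). Its near-copy HSPA1A rose by 0.71 (0.019) and 0.81 (0.012), and reads common to the pair are not counted. Without NELFB replicate 1 or 2 neither passed in the NELFB knockdown (HSPA1B 0.0544 and 0.0889, HSPA1A 0.0696 and 0.109), and HSPA1A did not pass in the NELFE knockdown without control replicate 2 (0.0658). HSP90AA1, the most abundant of this list, was lower in the NELFE knockdown (-0.54, edgeR adjusted p = 0.039), a call lost without control replicate 2 or 3, NELFE replicate 1 or 2 or NELFB replicate 1 or 2 (adjusted p up to 0.139) and with only the libraries of the groups compared (0.0707).

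**Figure D5:**
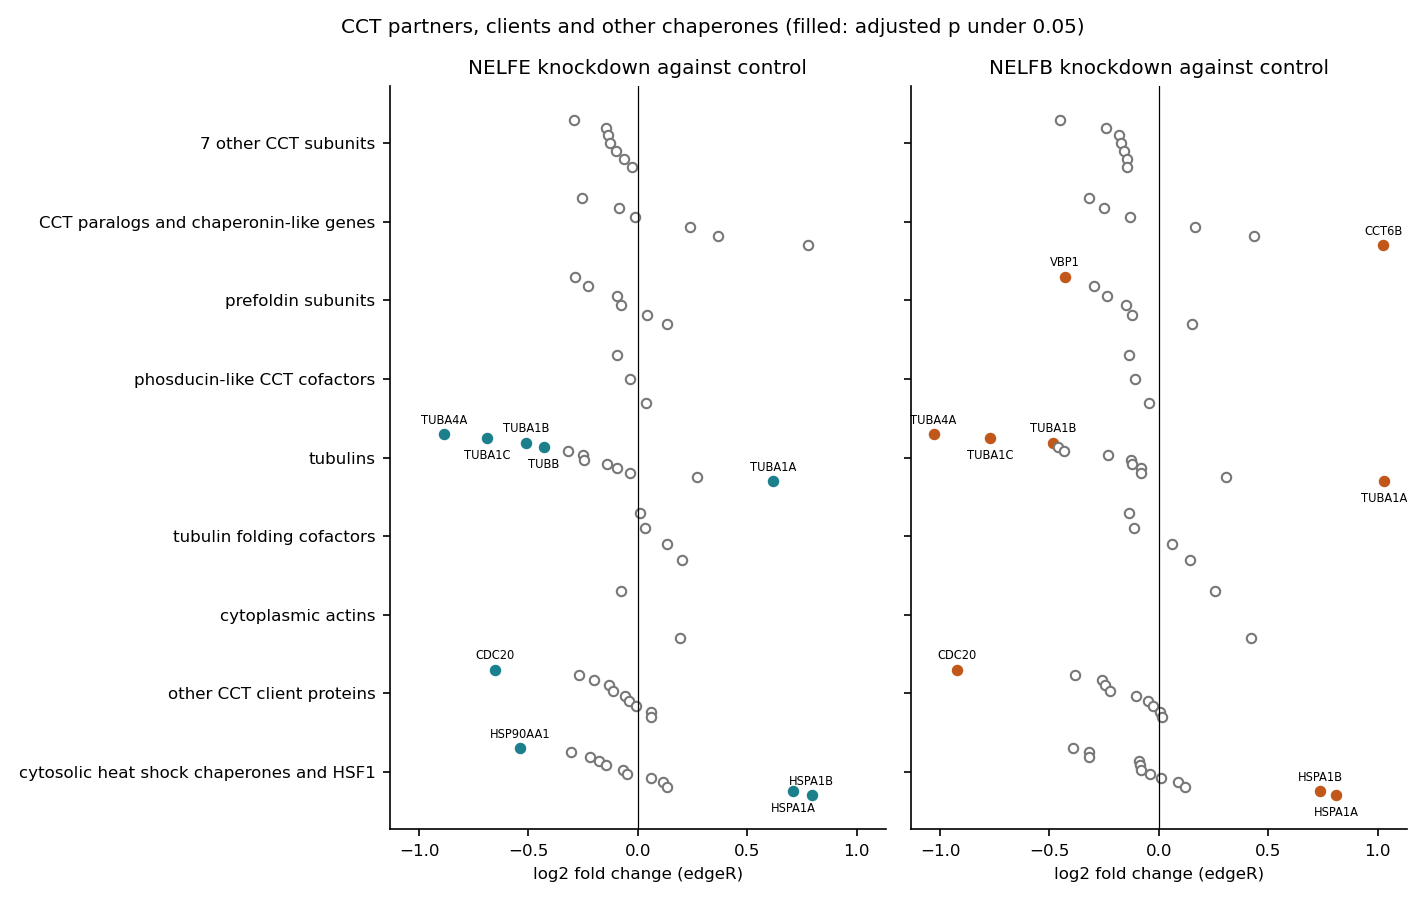
Log2 fold change from edgeR against control in the NELFE (left) and NELFB (right) knockdown for the 7 other CCT subunits and for genes that work with, resemble or are folded by the chaperonin. Each point is a gene, filled and named where the adjusted p is under 0.05; the 7 subunits have no filled point, while 5 tubulins in the NELFE and 4 in the NELFB knockdown have one.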

How the data were processed

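The authors aligned single-end 65-base reads to GRCh38 and deposited 1 table of unnormalized counts for the genes of Gencode v24, without use of strand. STAR 2.5.4a and FastQC 0.11.6 are named in the submitters' processing notes. Symbols and positions were taken from GENCODE v44 (GRCh38), which matched 99.9% of the counts. The methods of the study call the knockdown libraries independent biological replicates. TBCE was not matched to the table.

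Differential expression used edgeR 4.0.16 under R 4.3.3 (low-count filter filterByExpr, TMM, robust quasi-likelihood fit of the 3 groups, or of 5 knockdown against 3 control libraries), with Benjamini-Hochberg adjustment over all tested genes and calls at an adjusted p under 0.05. Alternatives included DESeq2 1.42.0. Guide RNA matches were sought beside NGG on both strands. Genes named are the 8 subunits, the guide targets, genes starting within 10000 bases of a subunit, subunit pseudogenes, the 5 genes most correlated with CCT5, and of each list the most abundant gene and at most 3 called genes per direction and comparison, not all of which are printed. HSPA8 was among the genes named outside this rule. The members and lists were chosen with earlier results of these data known.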

Additional observations from a re-analysis of the deposited data

Results flagged for a closer look

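Among the 7 other subunits, the genes next to the subunits and the partner lists, ATPSCKMT was the only gene that passed the test of the difference between the knockdowns, by 1.504 on the log2 scale (NELFE minus NELFB, edgeR adjusted p = 0.00034). The difference passed without any 1 library (edgeR adjusted p up to 0.0165). Of all tested genes, 0.237% were called higher and 0.0771% lower in this comparison. The genes chosen for a pattern like that of CCT5 were not counted here, since that choice fixes such a difference. Groups of 3 and 2 libraries are too small for a test of outlying samples.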

How the results depend on the processing

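In no comparison and under no alternative was any of the 7 subunits called higher, and the calls that appeared were CCT6A and TCP1 only. For 1 subunit called lower instead of 0, the settings were no filter on low counts (in each knockdown) and the replicate block (in each knockdown and in both together). Leaving out 1 library gave 0 to 1 subunits lower in each knockdown and 0 to 2 in both together. Across all genes, the replicate block gave 2312 called lower in the NELFB knockdown, and 2408 higher and 2355 lower in the NELFE knockdown. Between the knockdowns it gave 69 higher and 126 lower, no filter gave 66 and 95, and lower calls were 36 with DESeq2, 8 with at least 10 counts in every library and 8 with only the libraries compared. Leaving out 1 library gave 380 to 2218 higher and 223 to 2098 lower in the NELFB knockdown, 561 to 1620 and 429 to 1503 in the NELFE knockdown, 24 to 47 and 2 to 34 between them, and 1360 to 2526 and 1328 to 2599 in both together. The lowest counts came without NELFB replicate 1 in the NELFB knockdown, without NELFE replicate 1 in the NELFE knockdown, without NELFB replicate 2 (higher) and without control replicate 2 or NELFB replicate 1 (lower, 2 genes each) between the knockdowns, and without control replicate 2 in both together. Without NELFB replicate 1 or 2 the lone library is assumed to vary like the other groups. The cause of these shifts was not tested.

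With the replicate block CCT6A was at -0.30 in the NELFB (adjusted p = 0.0434), -0.28 in the NELFE knockdown (0.0267) and -0.29 in both together (0.01, all by edgeR), CCT2 was at -0.040 and CCT3 at -0.061 in the NELFB knockdown, and ATPSCKMT passed in the NELFE knockdown (0.26, edgeR adjusted p = 0.0287). The labels do not say that equal replicate numbers mark a shared batch, so the numbers were not taken as pairs. Deviations of same-numbered libraries correlated at 0.275, 0.0542 and 0.451 for control with NELFE, where different numbers gave -0.377 to 0.231. For control with NELFB, same-numbered libraries gave -0.021 and -0.0127, and others -0.0147 to 0.021. For NELFE with NELFB they gave 0.103 and 0.199, and others -0.199 to 0.075. Whether control and NELFE replicates share a batch was not tested.

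Changes of sign occurred only in values that did not pass. With 1 library left out at a time, the NELFE knockdown gave -0.21 to 0.073 for CCT2 and -0.14 to 0.068 for CCT3, and both knockdowns together gave -0.26 to 0.027 for CCT2, -0.19 to 0.021 for CCT3 and -0.34 to 0.030 for ATPSCKMT. Between the knockdowns the ranges were -0.012 to 0.18 for CCT2, -0.070 to 0.098 for CCT4, -0.066 to 0.064 for CCT7, -0.019 to 0.14 for CCT8 and -0.025 to 0.16 for TCP1, and the replicate block gave -0.016, -0.066, -0.062, -0.013 and -0.00844.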

Other observations

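In the comparison of both knockdowns together against control, 13.3% of all tested genes were called higher and 12.7% lower. Calls higher and lower were 3 and 1 of 6 genes related to the chaperonin and 0 and 1 of 6 prefoldin subunits. They were 1 and 4 of 12 tubulins and 1 and 0 of 4 tubulin cofactors. Of 10 other clients 0 and 3 were called, and of 12 heat shock genes 2 and 2. Such small counts are not read as results about the lists. CCT6B and VBP1 passed again, though not without some single libraries, and further genes passed by edgeR. BBS10 and BBS12, chaperonin-like genes of Bardet-Biedl syndrome, were higher (log2 fold changes 0.21 and 0.40, edgeR adjusted p = 0.045 and 0.048). The tubulin cofactor TBCA was higher as well (0.18, edgeR adjusted p = 0.048). HSPD1 (-0.28, adjusted p = 0.049), HSP90AB1 (-0.31, adjusted p = 0.031), MLST8 (-0.26, adjusted p = 0.025) and VHL (-0.21, adjusted p = 0.027) were lower. With 1 library left out at a time, BBS10, HSPD1 and HSP90AB1 passed only without control replicate 1 or NELFE replicate 3, BBS12 only without NELFE replicate 3 and TBCA only without NELFB replicate 2. MLST8 did not pass without control replicate 1 or 3, NELFE replicate 2 or NELFB replicate 1, and VHL not without control replicate 2, NELFE replicate 1 or NELFB replicate 1 or 2. HSPD1 also did not pass with DESeq2 size factors (0.0512) or with at least 10 counts in every library (0.0522), TBCA not with DESeq2 size factors (0.0533), and without a filter on low counts BBS10 (0.184), BBS12 (0.134), TBCA (0.21) and VHL (0.0676) did not pass. CD34 RNA, though scarce, was higher in the NELFE (log2 fold change 2.82 ± 0.83, edgeR adjusted p = 0.045) and the NELFB knockdown (4.14 ± 0.77, edgeR adjusted p = 0.0054), fold changes that rest on very few control reads, and the call was lost in the NELFE knockdown without any control library, NELFE replicate 1 or NELFE replicate 3 and in the NELFB knockdown without NELFB replicate 1 (0.0883).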
